A study of Mus musculus with 18 samples.

Results

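The 35 genes described here are imprinted genes of the mouse that lie outside the *Dlk1*-*Meg3* cluster. They were taken by symbol from a list of known imprinted genes, and all 35 were found among the 24346 symbols in the files. The rule itself uses no measured value, but the genes were chosen with earlier results of these data known. RNA-seq of female mouse embryonic stem (ES) cells with and without *Kdm6a*, an X-linked gene for a histone H3K27 demethylase, gave 18 libraries from a pair of hybrid lines. Tsix-stop cells carry a maternal genome of a laboratory strain and a paternal cast (Mus castaneus) genome, per the study's methods, and a transcriptional stop in *Tsix* on the maternal X chromosome that wt, KO and CRISPR control cells share. They were collected as undifferentiated cells, grown on feeders that were depleted on gelatin before use (D0), and as embryoid bodies (EBs) at D15, with 2 wt, 2 *Kdm6a* KO and 1 CRISPR control library on each day. E8 cells carry a BL6 and a cast genome, and gave 2 wt and 2 *Kdm6a* KO libraries each at D7 and at D15 of nondirected differentiation. Both Tsix-stop KO libraries of a day were from a homozygous deletion of exons 2 to 4, made in a pair of clones that the labels do not tell apart, and the E8 KO was 1 clone with the promoter deleted. The study's methods describe E8 RNA-seq of other days, with a single wt and a single KO library on each, so that the paired libraries of an E8 group may be repeat libraries of 1 sample. A difference between E8 KO and wt can therefore not be told apart from a difference between 1 clone and its parent line. The study's methods describe the Tsix-stop wt libraries as 2 biological replicates and the KO libraries as 2 clones. E8 replicates are not stated to be separate cultures. In both lines a p-value measures only the spread between these libraries.

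An imprinted gene is transcribed mostly or wholly from the allele of 1 parent. In most cases the choice is set in the germ line by DNA methylation at imprinting control regions. It is then held after fertilization by ZFP57, which binds a methylated hexamer in these regions, with its partner TRIM28. A few imprinted RNAs silence their neighbours in cis, such as *Airn* at *Igf2r* and *Kcnq1ot1* at *Cdkn1c* and *Phlda2*, and the Polycomb mark H3K27me3, which KDM6A removes, takes part in some of this silencing. Many of the genes act on fetal growth: *Igf2* encodes a growth factor, *Igf2r* the receptor that clears it, *Cdkn1c* a brake on the cell cycle and *Plagl1* a transcription factor of the network. ES cells are known to lose imprints in culture, after which both alleles of a gene can be transcribed.

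The promoters of 4 genes, picked among members with a ZFP57 hexamer, are shown. The hexamer, TGCCGC or its reverse complement GCGGCA, is in capitals. Each window runs from 250 bases before to 50 bases after the RefSeq start on GRCm38.p6, 5′ to 3′ on the strand of the gene. The *Mest* window (chr6:30737800-30738099, plus strand) held 2 hexamers, as did a shifted copy of it. The windows of *Copg2* (chr6:30896745-30897044, minus strand), *Igf2* (chr7:142661222-142661521, minus strand) and *Plagl1* (chr10:13090582-13090881, plus strand) held 1 each. Windows without the hexamer were passed over here, 1 of the 3 of *Mest* and 3 of the 4 of *Igf2*, while *Copg2* and *Plagl1* had a single window. *Peg3*, *Gnas*, *Airn*, *Igf2r* and *Phlda2*, all called in a comparison below, had no window with the hexamer and are not shown. Over the 28 members with a RefSeq window 11 of 44 windows (25.0%) held the hexamer, against 11.6% of all 32851 windows, and 10 members had it in at least 1 window, against 13.1% of all 27025 genes. The members' windows also held more CpG, at a median of 15.5 against 7 in all windows, and the part of this in the hexamer counts was not tested. A match is a description and not a bound site.
Mest: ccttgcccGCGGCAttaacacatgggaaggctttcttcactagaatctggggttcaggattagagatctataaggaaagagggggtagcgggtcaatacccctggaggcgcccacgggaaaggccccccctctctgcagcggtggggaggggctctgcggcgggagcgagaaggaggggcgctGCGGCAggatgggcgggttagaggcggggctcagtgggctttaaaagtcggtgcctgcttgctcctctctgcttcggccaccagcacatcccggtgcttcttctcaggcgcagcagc
Copg2: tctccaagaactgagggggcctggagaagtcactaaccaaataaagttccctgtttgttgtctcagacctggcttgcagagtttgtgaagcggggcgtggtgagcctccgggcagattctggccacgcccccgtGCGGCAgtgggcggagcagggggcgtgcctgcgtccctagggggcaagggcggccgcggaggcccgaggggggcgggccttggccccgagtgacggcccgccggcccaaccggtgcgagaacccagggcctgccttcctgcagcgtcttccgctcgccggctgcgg
Igf2: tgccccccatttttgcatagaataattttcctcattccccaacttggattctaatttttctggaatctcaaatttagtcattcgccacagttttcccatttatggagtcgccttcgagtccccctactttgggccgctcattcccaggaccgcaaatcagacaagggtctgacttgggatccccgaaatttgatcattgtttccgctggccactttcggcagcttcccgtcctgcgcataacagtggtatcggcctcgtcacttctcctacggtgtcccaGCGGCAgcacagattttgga
Plagl1: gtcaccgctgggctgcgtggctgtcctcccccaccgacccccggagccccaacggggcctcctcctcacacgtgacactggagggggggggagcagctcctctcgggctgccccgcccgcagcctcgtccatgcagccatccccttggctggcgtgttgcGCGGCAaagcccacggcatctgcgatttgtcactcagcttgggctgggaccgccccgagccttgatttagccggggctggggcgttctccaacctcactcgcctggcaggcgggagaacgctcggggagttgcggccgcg

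The Tsix-stop libraries held 51091152 to 68796179 estimated counts, of which 9210225 to 12095548 per library were reads with a SNP that told the alleles apart. E8 files held TPM (transcript shares scaled to gene length and library total), so their depth is unknown. Of the targeted gene, E8 KO libraries had at most 0.0319 TPM against 46.7 to 47.8 TPM in wt, while the Tsix-stop deletion leaves most exons in place and its *Kdm6a* level does not check it (27.8 and 94.3 CPM, counts scaled to library size, in KO EBs against 110 and 139 CPM in wt EBs). CRISPR control cells had 127 CPM of *Kdm6a* at D0 and 96.0 CPM at D15, next to the 128.8 and 94.3 CPM of KO replicate 1, while KO replicate 2 had 47.96 and 27.8 CPM. The deposited files of both CRISPR control libraries are named as a KO replicate, against their labels. The labels were followed, and the levels do not tell which of the names holds. The libraries also differed in their cell type markers. At D15 the summed level of 10 fibroblast markers was 5877 and 6362 CPM in Tsix-stop wt EBs, 443 and 581 CPM in KO EBs and 246 CPM in the CRISPR control EBs, with no marker at 0. The 8 visceral endoderm markers summed to 563 and 592 CPM in wt, 22.3 and 48.6 CPM in KO and 22.04 CPM in CRISPR control EBs, again with no marker at 0. Summed trophoblast and cardiac muscle markers were also lower in KO than in wt EBs. Neural markers went the other way, with 124 and 88.3 CPM in KO against 42.3 and 46.3 CPM in wt EBs. Pluripotency markers did so too, with 5610 and 4241 CPM in KO against 3041 and 3372 CPM in wt EBs. E8 wt cells kept 13042 to 17465 TPM of 8 pluripotency markers, against 4477 to 7913 TPM in KO, and their 8 visceral endoderm markers summed to 28.7 to 32.7 TPM in wt and 324 to 1379 TPM in KO. At D15 the trophoblast markers of E8 cells summed to 40.9 and 45.1 TPM in wt and 272 and 276 TPM in KO. The part of these differences in the results on imprinted genes was not tested, and in bulk RNA fewer cells of a type cannot be told apart from less RNA per cell.

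Most members were transcribed from both alleles in Tsix-stop cells, before and after differentiation and with or without *Kdm6a*. *Ube3a*, *Ppp1r9a*, *Copg2*, *Gnas*, *Grb10*, *Commd1*, *H13*, *Trappc9* and *Inpp5f* are known as imprinted in some tissues or isoforms only. For these, reads of both alleles need not mean a lost imprint, and the counts below include those that were measured. A member was counted as monoallelic when 1 allele held at least 90% of its reads with SNPs in every library of a group, with at least 20 such reads in each. Of 25 members measured in wt ES cells 1 was monoallelic and 20 had a maternal share between 30% and 70%, against 2.97% monoallelic and 81.2% between 30% and 70% among all autosomal genes. In wt EBs the counts were 1 and 27 of 28, against 1.72% and 86.7% of autosomal genes. The KO and CRISPR control groups likewise had 1 monoallelic member each (of 23, 25, 23 and 30 measured, autosomal shares 4.65%, 3.59%, 3.97% and 2.31%). In KO cells 21 of 23 members at D0 and 23 of 25 at D15 lay between 30% and 70%, against 80.9% and 85.3% of autosomal genes. In CRISPR control cells it was 22 of 23 and 28 of 30, against 83.7% and 89.5%. The single gene was in every group *Commd1*, a copper and NF-kB regulator whose maternal share was 99.0% to 99.9% in all 10 libraries, with 478 to 758 reads each. *Zrsr1*, the paternally expressed gene that lies within *Commd1* on the other strand, was at 42.1% to 54.2% in the same libraries.

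*H19*, the maternally expressed non-coding RNA downstream of *Igf2*, showed the balance most precisely. Its maternal share was 46.1% and 46.4% in wt EBs, from 120115 and 100185 reads. KO EBs were at 52.3% and 52.2%, and CRISPR control EBs at 52.6% (95% Wilson interval 52.2% to 52.9%, counting error only). Both alleles of this abundant RNA were thus transcribed in every group. *Snrpn*, a splicing factor subunit expressed from the paternal allele in tissues, had a maternal share of 48.7% to 59.5% over the 10 libraries. *Impact*, an inhibitor of the kinase GCN2 and another paternally expressed gene, stayed at 53.0% to 56.3%. *Igf2r* was at 47.0% to 52.6%. *Kcnq1ot1*, whose reads cannot be told apart from those of *Kcnq1* on the other strand, was at 52.6% to 60.7%.

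E8 wt cells likewise had 2 monoallelic members of 23 measured at D7 and 2 of 24 at D15, against 6.55% and 6.59% of autosomal genes. These were *Commd1*, at 94.4% to 96.9% BL6, and *Gnas*, a G protein alpha subunit, at 0% to 0.408% BL6. Both are known as imprinted in some tissues or isoforms only, and E8 KO cells lay within the same ranges. Faults in assigning their reads to alleles were not tested for. In Tsix-stop cells *Gnas* had 2 to 14 reads with SNPs per library, too few to give a state. In E8 KO cells 5 of 26 measured members were monoallelic on each day, against 6.31% of autosomal genes at D7 and 6.11% at D15. Besides *Commd1* and *Gnas* these were *H19* on the cast allele and *Igf2* and *Mest* on the BL6 allele. *Igf2* was too low in wt for its state to be measured, so that a change of state is seen for *H19* and *Mest* only. *H19* is known as maternally expressed and *Igf2* and *Mest* as paternally expressed. The direction of the E8 cross is not given in the sources used here, and without a reciprocal cross parent and strain cannot be told apart in either line. Between 17 and 19 members per E8 group lay between 30% and 70% BL6, against 70.5% to 73.0% of autosomal genes.

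**Figure D1:**
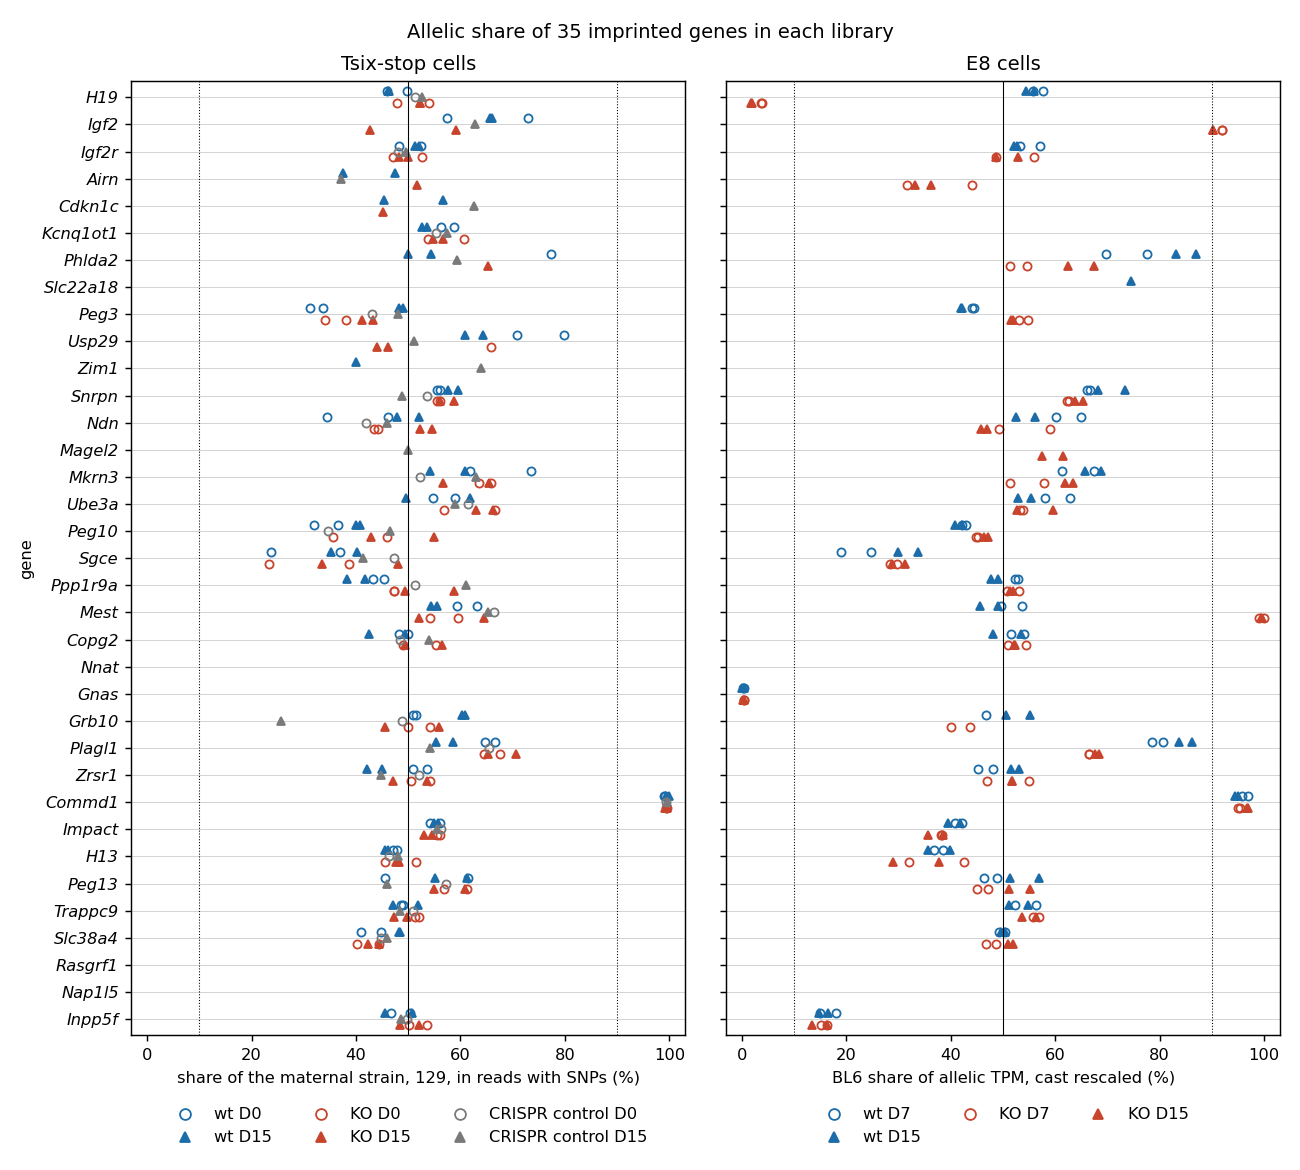
Allelic share (x axis, % of the maternal strain in Tsix-stop cells, left; % BL6 in E8 cells, right) of each member (rows) in each library that had at least 20 SNP reads or 1 TPM; dotted lines mark 10% and 90%. Commd1 lay at 99.0% to 99.9% in Tsix-stop cells. In E8 cells H19 and Mest left the middle in KO, while Igf2 was too low in wt to be shown there.

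Differentiation of wt Tsix-stop cells went with higher levels of 15 of the 30 members tested and lower levels of 2, where 37.8% of all 13121 genes tested were called, 24.2% higher and 13.6% lower. A call needed an edgeR adjusted p of at most 0.1 over all genes and at least a 2-fold change. The members' median log2 change was 0.97, against 0.018 for all genes. Of the tested members 4 reached 2.5 CPM in 2 libraries at D15 alone (*Airn*, *Cdkn1c*, *Phlda2* and *Nnat*), and 5 members did not reach it (*Slc22a18*, *Zim1*, *Magel2*, *Rasgrf1* and *Nap1l5*). These 4 were all among the 15 that rose, and a higher level at D15 is built into their test. A count without such genes was not made.

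*H19* was at 17.6 and 15.1 CPM in wt ES cells and at 14621 and 14141 CPM in wt EBs (log2 fold change 9.78, SE 0.41, adjusted p = 1.51e-06). In TPM, which allows genes to be compared, it stood at 22986 and 21347 in EBs. *Igf2* was at 10.4 and 12.9 CPM at D0 and at 1179 and 1014 CPM at D15 (log2 fold change 6.56, SE 0.23, adjusted p = 9.59e-07). Days did not overlap for either gene, and both rose from a low level in ES cells. *Airn* rose by 5.49 on the log2 scale, from 0.231 and 0.173 CPM to 10.5 and 7.85 CPM. Its reads cannot be told apart from those of *Igf2r* where the genes overlap, since the libraries were not stranded. *Sgce*, for epsilon-sarcoglycan, rose by 4.61, and its neighbour *Peg10*, a retrotransposon-derived gene needed in the placenta, by 3.70. *Nnat*, for neuronatin, rose by 4.505 from below 1 CPM.

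*Peg3*, a zinc finger gene, was at 44.5 and 73.9 CPM in wt ES cells and at 1083 and 937 CPM in wt EBs. *Mest*, for a hydrolase-fold protein, went from 77.4 and 104 CPM to 679 and 626 CPM, and *Gnas* from 149.9 and 106 CPM to 898 and 926 CPM. None of these genes overlapped between the days, and their log2 fold changes were 4.09 (SE 0.32), 2.84 (SE 0.20) and 2.83 (SE 0.20). *Cdkn1c* (3.97), *Phlda2* (2.46), *Usp29* (1.94), *Trappc9* (1.24), *Ndn* (1.19) and *Plagl1* (1.03) made up the rest of those that rose. *Plagl1* lost its call without wt D0 replicate 1 (0.73) or wt D15 replicate 1 (0.89) and with no filter on low counts (0.94). Adding the CRISPR control libraries to wt left 14 of 31 members called, and *Plagl1* (0.37, adjusted p = 0.682), *Ndn* (0.96), *Impact* (-0.90) and *Kcnq1ot1* (-0.86) were not. With the CRISPR control in place of wt, a comparison added after its values were seen, *Plagl1* was called in the other direction, with a fall over differentiation (-3.52, adjusted p = 0.000102), and *Trappc9* (0.85) and *Ndn* (0.57) fell short of 2-fold. *Impact* fell by 1.05 on the log2 scale and *Kcnq1ot1* by 1.13. The fall of *Kcnq1ot1* rested on wt D0 replicate 1, at 40.9 CPM against 19.8 CPM in replicate 2, and was -0.55 without it and -0.87 without wt D15 replicate 2. *Impact* lost its call without wt D0 replicate 2 (-0.83) or wt D15 replicate 2 (-0.99).

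The allelic share of 1 of 28 members tested changed between wt ES cells and wt EBs, against 16.4% of all genes. *Peg3* had a maternal share of 31.3% and 33.8% at D0 and at 48.9% and 48.2% at D15 (change of 16.1 percentage points, edgeR adjusted p = 1.25e-06). The days did not overlap. The CRISPR control library was already at 43.0% at D0 (95% interval 40.0% to 46.0%) and reached 47.9% at D15, and with it in place of wt the change was 4.95 points with an adjusted p of 0.233. KO cells were at 34.0% and 38.2% at D0 and at 41.2% and 43.2% at D15.

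*Kdm6a* KO ES cells had lower levels of 5 of 30 members and higher levels of none, where 8.12% of all genes were called and 5.01% were lower. The members' median change was 0.19 and that of all genes -0.0076. *Igf2* was at 1.24 and 1.60 CPM in KO against 10.4 and 12.9 CPM in wt (log2 fold change -3.03, SE 0.22, adjusted p = 0.000357). *H19* was at 4.34 and 5.89 CPM against 17.6 and 15.1 CPM (-1.67, SE 0.30, adjusted p = 0.0106). Neither gene overlapped between genotypes. *Phlda2* (-1.86), *Cdkn1c* (-1.83), both growth limiters of the *Kcnq1ot1* cluster, and *Usp29* (-1.75), a deubiquitinase family gene next to *Peg3*, were also lower, each at no more than 3.07 CPM in every D0 library. *Cdkn1c* had an adjusted p of 0.0664, which lay between 0.11 and 0.229 on leaving out any 1 of 6 libraries, and *Usp29* lost its call without KO D0 replicate 2 (adjusted p = 0.105).

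Summed markers of 4 other cell types also lay lower in both KO ES cell libraries than in both wt ones. The 10 fibroblast markers summed to 31.3 and 34.8 CPM in wt, 19.1 and 22.4 CPM in KO and 25.8 CPM in CRISPR control ES cells, with 0 to 2 of them at 0, and of these *Thy1* and *Col1a1* were called lower and *Pdgfrb* higher in KO. The 8 trophoblast markers summed to 18.4 and 17.4 CPM in wt, 6.13 and 11.3 CPM in KO and 10.03 CPM in CRISPR control cells, with 1 at 0, and 3 of the 7 tested were called lower. The 6 cardiac muscle markers summed to 19.2 and 13.2 CPM in wt against 7.80 and 4.95 CPM in KO, with none at 0 and 2 of 5 called lower. The 7 neural markers went from 88.6 and 92.4 CPM in wt to 45.03 and 41.6 CPM in KO, with 1 at 0 and 1 of 3 called lower. The 8 visceral endoderm markers overlapped between genotypes, with 6.50 and 6.96 CPM for wt against 7.67 and 5.85 CPM for KO. The part of these markers in the lower levels of the 5 members was not tested.

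The CRISPR control ES cells, which the labels give as a control, stood with the KO cells for some of these genes. Their *Igf2* was at 1.21 CPM, their *Usp29* at 0.778 CPM and their *Phlda2* at 0.591 CPM, all within or next to the KO range. With the CRISPR control added to wt edgeR called none of 31 members at D0, with 9 at an unadjusted p below 0.05. With the CRISPR control library in place of wt edgeR called none of the 31 members then tested at D0, against 2.27% of all genes. The changes of *Igf2* (0.23) and *Usp29* (0.090) turned direction. A single library has no spread of its own in that fit and was assumed to vary like the other groups.

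In D15 EBs 10 of 30 members were lower in KO and none higher, where 14.9% of all genes were called and 11.1% were lower. The members' median change was -0.40 and that of all genes -0.0018. *Igf2* was at 46.7 and 34.96 CPM in KO EBs against 1179 and 1014 CPM in wt EBs (log2 fold change -4.75, SE 0.21, adjusted p = 2.83e-05). *Plagl1* was at 43.6 and 36.5 CPM against 497 and 394 CPM (-3.48, SE 0.22, adjusted p = 8.35e-05). For both genes wt and KO were far apart, and KO libraries lay within a narrow range. *H19* was at 3005 and 5890.4 CPM against 14621 and 14141 CPM (-1.69, SE 0.28), and so stayed abundant in KO EBs.

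*Gnas* was at 213 and 293 CPM in KO EBs and at 898 and 926 CPM in wt EBs (-1.85, SE 0.20). *Mest* stood at 181 and 255 CPM against 679 and 626 CPM (-1.58, SE 0.19). *Peg3* was at 237 and 407 CPM against 1083 and 937 CPM (-1.65, SE 0.28). For each of these genes KO EBs lay above all wt and KO ES cells and below both wt EBs. *Usp29* (-2.22), *Airn* (-2.08), *Phlda2* (-1.24) and *Sgce* (-1.02) completed the list. *Sgce* was at 34.9 and 58.5 CPM against 97.6 and 92.2 CPM, and fell below the 2-fold threshold without KO D15 replicate 1 (-0.67), wt D15 replicate 1 or KO D0 replicate 2 (-0.999 in both), or with no filter on low counts (-0.96). *Peg10* in the same cluster was at 1999 and 3893 CPM in KO against 4299.9 and 3439 CPM in wt, and its groups overlapped. *Snrpn* (0.76, adjusted p = 0.0025) and *Igf2r* (-0.67, adjusted p = 0.0037) passed the adjusted p alone, with less than a 2-fold change.

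The CRISPR control EBs fell between wt and KO EBs for 8 of these 10 genes. They had 10466 CPM of *H19*, 123 CPM of *Igf2*, 548 CPM of *Gnas*, 312 CPM of *Mest* and 679 CPM of *Peg3*. *Sgce*, at 92.6 CPM, was within the wt range, and *Plagl1*, at 23.6 CPM, was below both KO libraries. Adding the CRISPR control to wt left 7 of 31 members called at D15, and the calls of *Usp29* (adjusted p = 0.115), *Phlda2* (adjusted p = 0.197) and *Sgce* (-0.99) were lost. With the CRISPR control in place of wt 3 of 31 members were called at D15, all lower in KO, against 6.47% of all genes: *Igf2* (-1.56), *H19* (-1.19) and *Gnas* (-1.08). The change of *Plagl1* was then 0.80 with an adjusted p of 0.103. Like KO EBs, the CRISPR control EBs had low summed fibroblast and visceral endoderm markers.

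**Figure D2:**
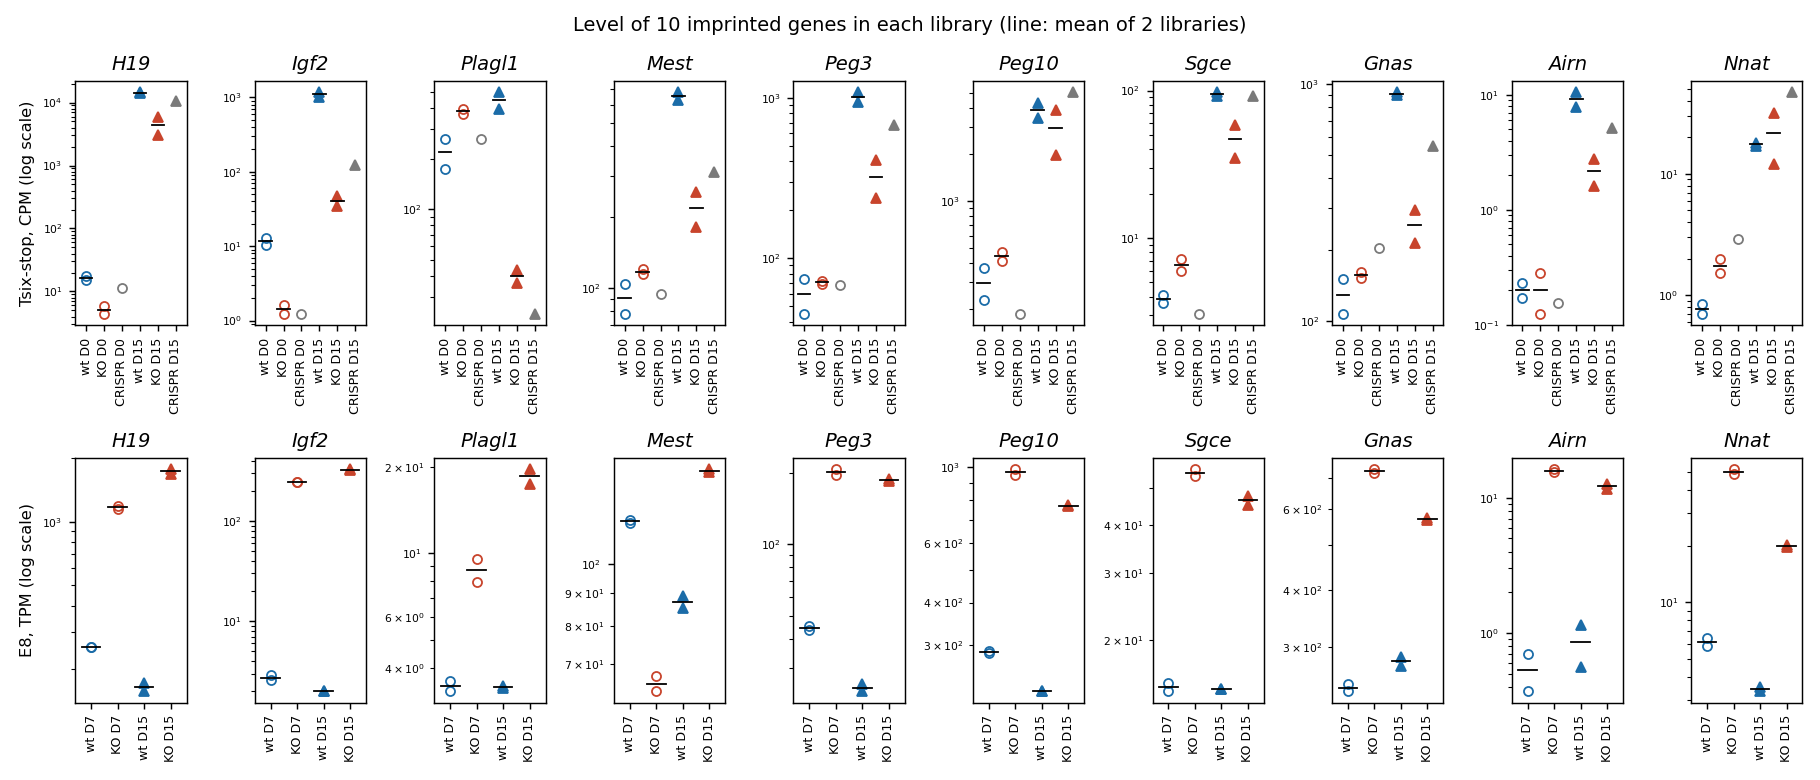
Level of 10 members in each library on log scales, in CPM in Tsix-stop cells (top) and TPM in E8 cells (bottom); open circles are the earlier day, triangles D15, blue wt, red KO, grey the CRISPR control, and lines the mean of 2 libraries. In Tsix-stop EBs the KO libraries lay below wt for 8 of these genes, while in E8 cells Igf2 rose from 1.99 to 2.88 TPM in wt to 245 to 329.9 TPM in KO.

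In KO cells 12 of 30 members were higher at D15 than at D0 and 1 was lower. Of all genes 27.6% were called in either direction, and their shares by direction are not given here. *H19* went from 4.34 and 5.89 CPM to 3005 and 5890.4 CPM (log2 fold change 9.76, SE 0.41), and *Igf2* from 1.24 and 1.60 CPM to 46.7 and 34.96 CPM (4.84, SE 0.22). *Cdkn1c* (4.84), *Nnat* (3.64), *Airn* (3.43), *Phlda2* (3.08), *Sgce* (2.83), *Peg10* (2.74), *Peg3* (2.19), *Usp29* (1.47), *Ppp1r9a* (1.18) and *Snrpn* (1.13) rose as well. Of the 12, *Airn*, *Cdkn1c*, *Phlda2* and *Nnat* reached the filter at D15 alone, so that a rise is built into their test. A count over all genes without such genes was not made here either. *Usp29* lost its call without KO D15 replicate 2 (0.97), and in the fit with the CRISPR control added to wt (adjusted p = 0.141). *Plagl1* fell by 3.25 on the log2 scale, from 369.9 and 395 CPM to 43.6 and 36.5 CPM, and its days did not overlap.

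The change over differentiation differed between KO and wt for 8 of 30 members, all smaller or more negative in KO, where 17.1% of all genes were called and 10.5% lower. The interaction was -4.29 (SE 0.30, edgeR adjusted p = 0.000264) for *Plagl1*, which rose in wt and fell in KO. It was -2.14 for *Gnas*, -1.95 for *Mest*, -1.90 for *Peg3*, -1.78 for *Sgce*, -1.72 for *Igf2* and -1.39 for *Ndn*. *Airn* had an interaction of -2.06 with an adjusted p of 0.0543, which ranged from 0.102 to 0.249 on leaving out any 1 of 5 libraries. *H19*, whose rise was 9.78 in wt and 9.76 in KO, was not called. After adding the CRISPR control to wt 5 of 31 members were called, and the calls of *Airn* (adjusted p = 0.153), *Igf2* (0.498) and *Plagl1* (0.137) were lost. With the CRISPR control in place of wt 2 of 31 members were called, *Igf2* and *Sgce*, against 3.42% of all genes, and the interaction of *Plagl1* was 0.25.

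At D0 no member of 28 tested had a changed allelic share in KO (edgeR), against 6.91% of all genes. None had an unadjusted p below 0.05, against 2107 of all 12298 genes. At D15 3 of 28 were called, against 10.1% of all genes. *Ppp1r9a*, for neurabin, had a maternal share of 49.4% and 58.8% in KO and at 38.2% and 41.8% in wt. The CRISPR control was at 61.0% (95% interval 57.1% to 64.7%), above both KO libraries, so that the change turned direction with it in place of wt (-6.90 points). *Plagl1* was at 65.3% and 70.7% in KO and at 58.6% and 55.3% in wt (change of 11.0 points, adjusted p = 0.000881). *Igf2* was at 42.8% and 59.2% from 152 and 120 reads in KO, against 66.1% and 65.6% in wt. Leaving out KO D15 replicate 1 reduced the change of *Igf2* to -6.68 points, and without KO D15 replicate 2 *Ppp1r9a* (9.37 points) and *Plagl1* (8.33 points) fell below the 10 points that a call needs. *Plagl1* did so also without wt D15 replicate 2 (9.36 points). Between KO ES cells and KO EBs no member was called, against 9.12% of all genes. An unadjusted p was below 0.05 for 3 members, and for 2918 of all 12298 genes.

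In E8 cells more members were higher than lower in KO. At D7 11 of 29 members tested were higher in KO and 2 lower, where 17.5% of all 12452 genes were called, 11.4% higher and 6.18% lower. The test was limma on log2(TPM + 1), on which scale the fold change of a low gene is understated. Of the members tested 3, *Airn*, *Magel2* and *Peg13*, reached the filter of 2.5 TPM in KO libraries alone, and a higher level in KO is built into their test. Without such genes 9 of 26 members were higher at D7, against 8.64% of all genes. The median change of the 29 members was 0.28 and that of all genes 0.10. *Igf2* was at 248 and 245 TPM in KO against 2.57 and 2.88 TPM in wt (log2 fold change 6.05, SE 0.04, adjusted p = 3.7e-10). *H19* was at 1187 and 1153 TPM against 255 and 256 TPM (2.19, SE 0.05, adjusted p = 2.35e-08). Growth factor and neighbouring RNA were thus both higher in KO, with no overlap.

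*Airn* was at 16.2 and 15.4 TPM in KO against 0.370 and 0.698 TPM in wt (3.46, SE 0.16), and *Igf2r*, the gene it silences in tissues, at 14.9 and 13.997 TPM against 36.6 and 36.2 TPM (-1.28, SE 0.04). The pair moved in opposite directions, with no overlap between genotypes in either gene, though *Airn* reached the filter in KO alone. *Igf2r* was at 48.6% to 57.1% BL6 over wt and KO cells of both days. In Tsix-stop EBs both genes had lower mean levels in KO than in wt. Silencing of *Igf2r* by *Airn* was not tested. *Peg3* was at 207 and 196 TPM against 45.2 and 43.7 TPM (2.15, SE 0.04). *Nnat* (2.84), *Sgce* (1.796), *Peg10* (1.75), *Gnas* (1.56), *H13*, for signal peptide peptidase (1.30), *Peg13* (1.19) and *Plagl1* (1.12) were also higher. *Phlda2* was lower, at 10.8 and 11.7 TPM against 41.7 and 41.2 TPM (-1.79, SE 0.05). *Plagl1* lost its call when the libraries were rescaled to the same median gene (0.93), and *Peg13* and *Plagl1* lost theirs with a pseudocount of 5 (0.66 and 0.70).

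At D15 10 of 29 members were higher in KO and none lower, where 10.7% of all genes were called and 7.67% were higher. Without the genes that reached the filter in KO alone, *Airn* and *Magel2* among the 10, it was 8 of 26 members against 5.05% of all genes. The members' median was 0.27 and that of all genes 0.09. *Igf2* was at 322 and 329.9 TPM in KO against 2.00 and 1.99 TPM in wt (6.77, SE 0.04, adjusted p = 5.81e-10). *H19* was at 1691 and 1772 TPM against 157 and 172 TPM (3.39, SE 0.05, adjusted p = 9.21e-09). *Peg3* (2.86), *Airn* (2.84), *Nnat* (2.25), *Plagl1* (2.14), *Magel2*, a MAGE family gene (2.03), *Peg10* (1.81), *Sgce* (1.57) and *Gnas* (1.02) were higher too. *Gnas* was at 567 and 573 TPM against 274 and 286 TPM, and fell short of 2-fold on rescaling to the same median (0.85) or without wt D15 replicate 1 (0.99). *Magel2* lost its call with a pseudocount of 5 (0.95). *Igf2r* and *Phlda2* had changes of -0.35 and -0.43 at D15, below 2-fold.

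Between D7 and D15 of wt E8 cells limma called none of 29 members, against 1.41% of all genes. Of these 18 had an unadjusted p below 0.05, as did 7091 of all 12452 genes, and 1 member was called with a pseudocount of 0.1. In KO cells 4 members rose, *Phlda2* (1.39), *Slc38a4*, an amino acid transporter (1.21), *Mest* (1.08) and *Plagl1* (1.01), and *Nnat* (-1.28) and *Peg13* (-1.08) fell, where 6.11% of all genes were called. *Slc38a4* was at 87.3 and 85.8 TPM in KO cells at D7 and at 198 and 205 TPM at D15, with wt at 153 to 169.6 TPM between them. *Mest* was at 67.0 and 63.5 TPM in KO cells at D7, below the 116 and 117 TPM of wt, and at 139.9 and 138 TPM at D15, above the 85.3 and 89.1 TPM of wt. The KO by day interaction was called for 7 of 29 members, all positive, against 7.25% of all genes: *Mest* (1.49), *Magel2* (1.38), *Phlda2* (1.36), *Cdkn1c* (1.25), *H19* (1.20), *Slc38a4* (1.11) and *Plagl1* (1.01). *Plagl1* fell below 2-fold in both of these comparisons without KO D7 replicate 2 (0.89 and 0.90) or KO D15 replicate 2 (0.93 in both), and in the interaction also without wt D7 replicate 2 (0.97). With a pseudocount of 5 the interactions of *Cdkn1c* (0.63), *Magel2* (0.65) and *Plagl1* (0.78) and the changes of *Plagl1* (0.78) and *Peg13* (-0.61) over time in KO cells fell below 2-fold.

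**Figure D3:**
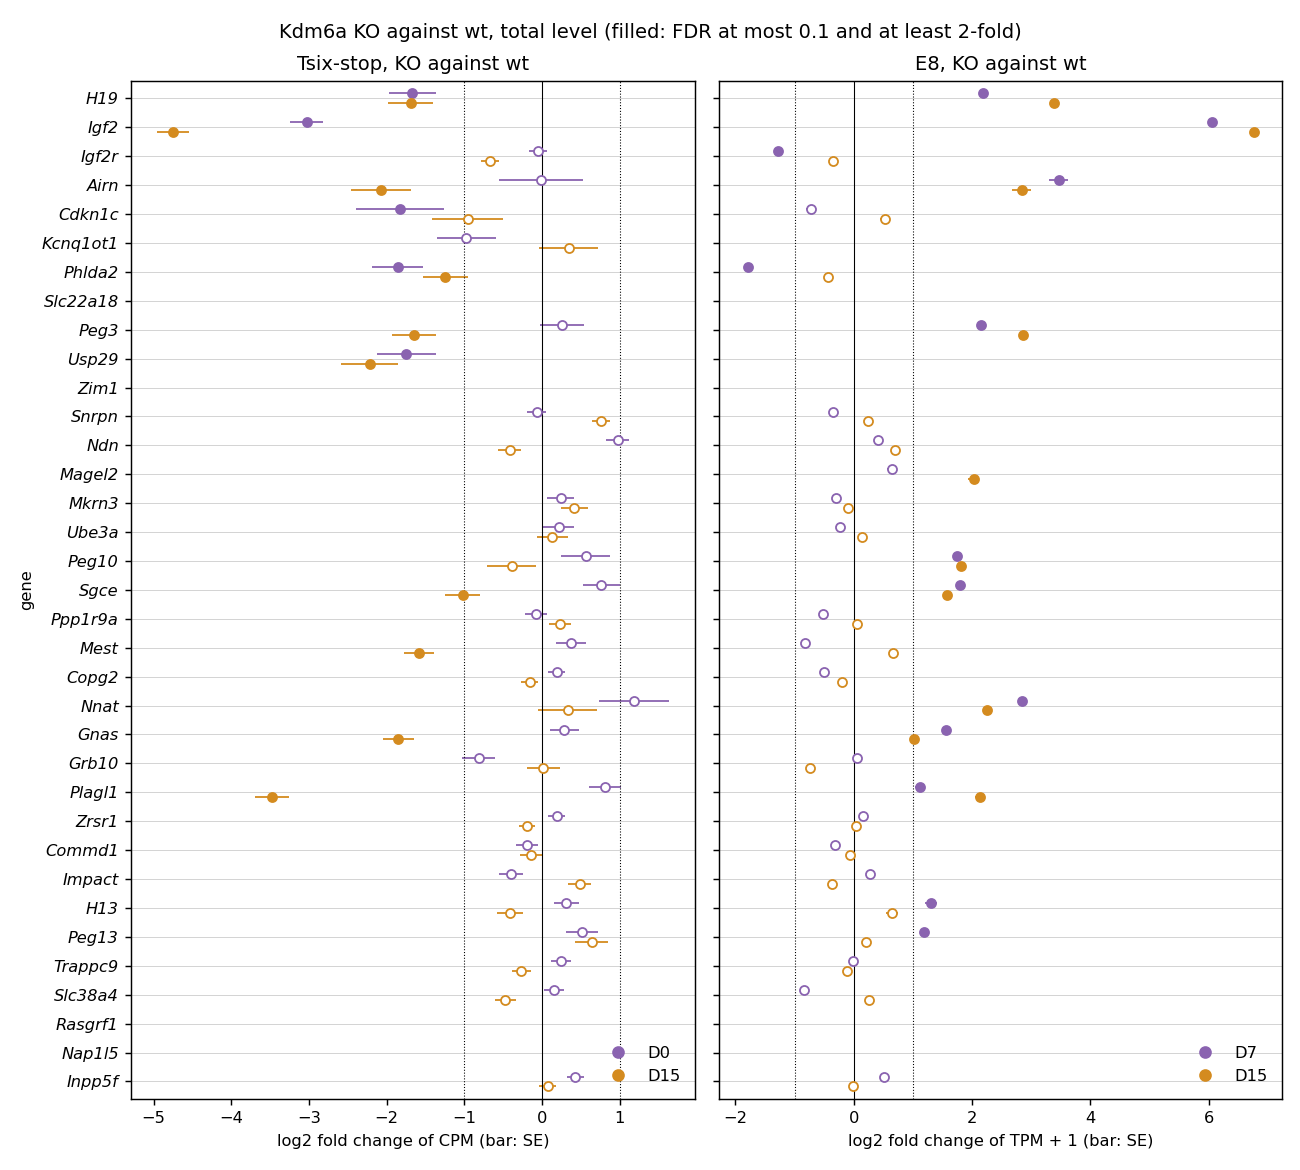
Log2 fold change of KO against wt (x axis, bars SE) for each member (rows) in Tsix-stop cells by edgeR on counts and in E8 cells by limma on log2(TPM + 1), filled where called; dotted lines mark 2-fold. Igf2 stood at -4.75 in Tsix-stop EBs and at 6.77 in E8 cells at D15.

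Between the lines 7 members were called at D15 in both, and all of these were lower in Tsix-stop KO and higher in E8 KO. They were 7 of the 10 called in each line and of 28 tested in both, where 4.94% of all genes tested in both lines were called in both. Opposite directions were the rule over all genes too: of the 591 called in both lines 95.6% moved in opposite directions, and 86.3% were lower in Tsix-stop KO and higher in E8 KO. The changes were -4.75 and 6.77 for *Igf2*, -1.69 and 3.39 for *H19*, -1.65 and 2.86 for *Peg3*, and -2.08 and 2.84 for *Airn*, which in E8 cells reached the filter in KO alone. They were -3.48 and 2.14 for *Plagl1*, -1.85 and 1.02 for *Gnas* and -1.02 and 1.57 for *Sgce*. The lines share no libraries, but their values are on different scales and the difference between lines was not tested. Between wt and KO, the Tsix-stop wt EBs had the higher levels and the higher fibroblast and visceral endoderm markers. In E8 cells the KO cells had the higher levels and the higher visceral endoderm markers. The CRISPR control EBs did not keep to this pairing. Their fibroblast sum (246 CPM) and visceral endoderm sum (22.04 CPM) were no higher than in KO EBs. Yet *Sgce* (92.6 CPM) was within the wt range, *Plagl1* (23.6 CPM) was below KO, and the rest of the 7 lay between. Other marker lists differed too: the trophoblast sum of the CRISPR control EBs (237 CPM) exceeded both wt EBs. Cardiac muscle markers were lower in E8 KO than in wt at D7. The part of these markers in the levels was not tested.

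The allelic share of 5 of 24 members changed in E8 KO cells at D7, against 13.2% of all 10683 genes tested, and of 5 at D15, against 11.2%. The cast values of each library were scaled to equal alleles in the median autosomal gene, since they made up 79.9% to 82.8% before. A call needed a limma adjusted p of at most 0.1 and a change of at least 10 percentage points. *Mest*, whose promoter with 2 hexamers is shown above, was at 53.7% and 49.7% BL6 in wt at D7 and at 99.0% and 100% in KO (adjusted p = 3.37e-07). At D15 it was at 49.0% and 45.6% in wt and at 99.6% and 99.5% in KO (adjusted p = 1.33e-07). Its cast allele was at 7.53 to 13.3 TPM in the 4 wt libraries and at no more than 0.183 TPM in KO. The BL6 allele had 7.22 to 13.1 TPM in wt, 17.7 and 17.5 TPM in KO at D7 and 31.6 and 33.8 TPM in KO at D15. *Mest* thus had 1 active allele in KO and both in wt. *Copg2*, a coatomer subunit gene whose end overlaps that of *Mest* on the other strand, stayed at 48.1% to 54.4% BL6 in all 8 libraries. It is known as imprinted in some tissues or isoforms only.

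*H19* went the other way. It was at 55.8% and 57.7% BL6 in wt at D7 and at 3.67% and 3.83% in KO (adjusted p = 8.64e-09), and at D15 at 54.3% and 55.9% in wt and at 1.68% and 1.84% in KO (adjusted p = 3.61e-09). The BL6 allele of *H19* was at 37.8 to 65.6 TPM in wt and at 11.9 to 21.5 TPM in KO, while the cast allele was at 31.8 to 48.2 TPM in wt and at 513 to 740.2 TPM in KO. The 2 alleles therefore moved apart in opposite directions in KO, and the higher total came from cast. *Igf2* was at 92.0% and 91.9% BL6 in KO at D7 and at 90.2% in both KO libraries at D15. In wt cells the BL6 and cast alleles of *Igf2* together had less than 1 TPM in each library, so that its wt share of 52.4% to 86.9% is imprecise. *Igf2* was called at D7 (adjusted p = 1.64e-05) and not at D15, where the change was 9.48 percentage points. The KO cells transcribed *H19* from cast and *Igf2* from BL6, the 2 genes being neighbours that in tissues are read from opposite parental alleles.

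The genes around *H19*, *Igf2* and *Mest* did not share their skew. The median autosomal gene within 5 Mb of *H19* and in no imprinted list was at 50.6% to 53.1% BL6 in the 4 KO libraries, over 72 to 76 genes. Around *Mest* it was at 52.0% to 53.1%, over 40 to 43 genes. Genes around *Peg10* and *Sgce* leaned to cast, at 20.4% to 23.6% BL6 in wt and 25.3% to 36.5% in KO over 13 to 16 genes, and the 18.98% to 33.7% BL6 of *Sgce* in E8 cells lay in much the same range. In Tsix-stop KO cells the neighbours of *Nap1l5* were read from the maternal allele (median 100% in all 4 libraries, 19 to 23 genes), against 56.25% to 63.2% in wt, but *Nap1l5* itself was at no more than 0.864 CPM there.

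The other called shares in E8 cells were smaller. *Phlda2* was at 69.8% and 77.6% BL6 in wt and at 54.5% and 51.4% in KO at D7, and at 83.2% and 86.9% against 62.4% and 67.4% at D15. *Plagl1* was at 80.7% and 78.5% in wt and at 66.5% and 66.4% in KO at D7, and at 83.7% and 86.3% against 68.4% and 67.6% at D15. Both genes moved towards equal alleles in KO, without overlap. The total level of *Plagl1* rose on both alleles, BL6 from 2.49 to 2.65 TPM in wt to 5.16 to 11.5 TPM in KO and cast from 0.397 to 0.706 TPM to 2.61 to 5.52 TPM. *Airn* was called at D15 alone, at 60.7% and 60.9% in wt, from less than 1 TPM of both alleles together, and at 33.1% and 36.2% in KO. The calls of *Plagl1* and *Airn* were lost on leaving out single libraries: *Plagl1* at D7 without wt replicate 1 or either KO replicate (adjusted p = 0.123 to 0.153) and at D15 without either KO replicate (0.119 and 0.15), and *Airn* without wt D15 replicate 1 or KO D15 replicate 1 (0.115 and 0.16). With an allele pseudocount of 2 *Plagl1* was not called on either day.

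*Peg3* rose on both alleles in E8 KO. Its BL6 allele was at 6.03 to 12.5 TPM in wt and at 56.4 to 71.9 TPM in KO, and its cast allele at 8.36 to 15.7 TPM in wt and at 52.9 to 62.9 TPM in KO. Its share stood at 41.9% to 44.5% BL6 in wt and 51.6% to 54.8% in KO, a change of 9.74 and 9.75 percentage points on the 2 days, just short of a call. No share of the 24 members was called between D7 and D15 by limma, in wt (0.0562% of all genes) or in KO (0.393%). An unadjusted p was below 0.05 for 4 members in wt and 5 in KO, against 1073 and 1335 of all 10683 genes.

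**Figure D4:**
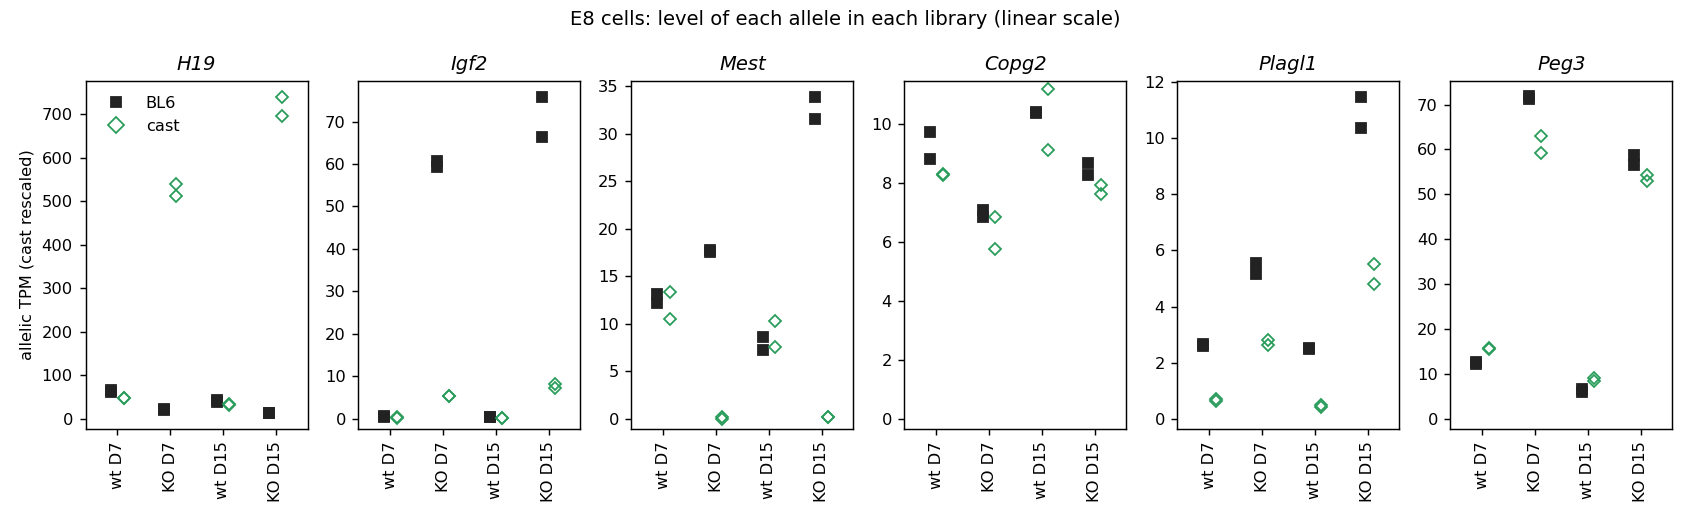
Level of the BL6 allele (squares) and of the rescaled cast allele (diamonds) of 6 members in each E8 library, in TPM on linear axes. In KO cells H19 was read from cast at 513 to 740.2 TPM, Igf2 and Mest mostly from BL6, and Copg2, Plagl1 and Peg3 from both.

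Of the 31 members tested in a line 24 were called in at least 1 comparison of levels, against 51.1% of all 13617 genes, and 7 were called in none: *Mkrn3*, a ring finger gene, *Ube3a*, a ubiquitin ligase imprinted in neurons, *Copg2*, *Grb10*, an adaptor of the insulin receptor, *Zrsr1*, *Commd1* and *Inpp5f*, an inositol phosphatase. Their log2 fold changes lay between -0.82 and 0.84 over all comparisons. *Inpp5f* was transcribed from both alleles in Tsix-stop cells, with a maternal share of 45.5% to 53.6%, and mostly from cast in E8 cells, at 13.5% to 18.1% BL6. The other 4 members were too low for a test in either line. In Tsix-stop cells *Slc22a18*, a membrane transporter, and *Zim1*, a zinc finger gene, had at most 1.12 and 1.45 CPM, and *Nap1l5* and *Rasgrf1*, a Ras exchange factor, at most 1.804 and 0.378 CPM. In E8 cells the same genes had at most 2.60, 0.559, 1.13 and 0.307 TPM. *Magel2* was tested in E8 cells alone, and *Kcnq1ot1* and *Usp29* in Tsix-stop cells alone. *Nnat* had no read or TPM assigned to an allele in any library, so that its state was not measured.

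Imprinted genes outside the list and the genes that hold imprints give the setting. Of 46 other imprinted genes 31 were tested in Tsix-stop cells, and 3 were lower in KO at D0 (*Ascl2*, -2.20, *Asb4*, -1.98, and *Smoc1*, -1.79) and 5 at D15 (led by *Asb4*, -2.64, *Osbpl5*, -2.28, and *Ascl2*, -1.47), with none higher, against 5.01% and 11.1% of all genes lower. In wt EBs 6 were higher than in ES cells, led by *Osbpl5* (7.57), and 8 lower, led by *Tspan32* (-2.34), against 24.2% and 13.6% of all genes. Of the 30 tested in E8 cells 5 were higher in KO and 5 lower at D7, led by *Osbpl5* (1.45) and *Ascl2* (-1.61), and 5 were higher and 1 lower at D15, led by *Asb4* (3.06). All genes were called at 11.4% higher and 6.18% lower at D7 and at 10.7% in either direction at D15. Of 18 genes of imprint maintenance 3 were lower in Tsix-stop KO ES cells, the DNA methyltransferase genes *Dnmt3l* (-1.89) and *Dnmt3a* (-1.64) and *Dppa3* (-1.12), a protector of maternal methylation, against 5.01% of all genes. At D15 *Dppa3* (1.43) was the 1 gene of the list that was called, and it was higher in KO, against 14.9% of all genes called. In E8 cells *Dppa3* (-1.36) and *Tet1* (-1.005), for a 5-methylcytosine dioxygenase, were lower in KO at D7, and *Dnmt3a* (-1.20) and *Tet1* (-1.02) at D15, where 17.5% and 10.7% of all genes were called. In wt Tsix-stop cells 8 of the 18 fell with differentiation, led by the maintenance factor *Uhrf1* (-2.13), *Trim28* (-1.53) and *Tet2* (-1.46), with *Zfp57* at -1.42, and *Dnmt3l* (2.47) rose, against 13.6% of all genes lower and 24.2% higher. The share of *Dnmt3a* moved from 25.8% BL6 in E8 wt to 55.5% in KO at D7 and from 22.7% to 53.4% at D15, the 1 called share of the list in that line, where 13.2% and 11.2% of all genes were called.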

How the data were processed

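Total RNA-seq signal and its allelic split were read for 35 imprinted genes in 10 Tsix-stop and 8 E8 libraries. The genes and the gene lists were chosen with earlier results of these data known. The authors made unstranded poly(A) libraries, mapped single-end reads to 129 or BL6 and cast pseudo-genomes built from mm10 and strain SNPs, and deposited estimated counts per gene on each genome and of reads with SNPs for Tsix-stop cells. For E8 cells the authors deposited TPM, the allelic columns included, each scaled by itself. The submitters' processing notes name Bowtie2 2.4.5 and TopHat2 2.1.1. The study's text describes E8 RNA-seq at other days than the labels give, and with a single wt and KO library per day where the labels give 2 of each, so the E8 replicates may be repeat libraries. The files of the CRISPR control libraries are named as KO, and groups follow the labels.

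In Tsix-stop cells the maternal strain was 129. The estimated counts on the 129 genome, the genome used here for CPM, were rounded to whole numbers and tested with edgeR 4.0.16 (quasi-likelihood F test, TMM) over genes with 2.5 CPM in at least 2 libraries, with the 8 wt and KO libraries in 1 fit. Tsix-stop allelic shares were tested in edgeR on 129 and cast reads with a term for each library, at a mean of at least 20 reads. For E8 cells limma 3.58.1 was run on log2(TPM + 1), over genes with 2.5 TPM in at least 2 libraries, and on the log2 ratio of the alleles with 0.5 added to each. P-values were adjusted by Benjamini-Hochberg over all genes tested. A call needed an adjusted p of at most 0.1 with at least a 2-fold change of level or 10 percentage points of share. An exact permutation test of 2 against 2 libraries cannot go below p = 0.333. Wilson intervals cover counting error only.

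All 35 genes were accounted for, and values per library were given for those called, monoallelic or changed in share, up to 10 in a comparison by size. Other imprinted and maintenance genes were named up to 3 each way. Alternatives were DESeq2 1.42.0, other size factors, filters, pseudocounts and scalings, counts on either genome, the replicate number as a block, leaving out each library, and the CRISPR control added to wt, or, chosen after the data were seen, in place of wt. The fitting scripts were tested on simulated data. Of 24346 symbols 23999 were matched to GENCODE vM21 for positions. Symbols repeated in E8 files were summed. Reads of overlapping genes cannot be told apart where they share sequence, among others on opposite strands *Airn* and *Igf2r*, *Kcnq1ot1* and *Kcnq1*, *Zrsr1* and *Commd1*, and *Mest* and *Copg2*, and on the same strand *Peg13* and *Trappc9*.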

Additional observations from a re-analysis of the deposited data

Results flagged for a closer look

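Effects that differed between days by the interaction test in Tsix-stop cells (edgeR) were those of *Plagl1* (-4.29), *Gnas* (-2.14), *Airn* (-2.06), *Mest* (-1.95), *Peg3* (-1.90), *Sgce* (-1.78), *Igf2* (-1.72) and *Ndn* (-1.39). These are log2 differences between the KO effect at D15 and that at D0, all towards lower levels in KO at D15. In E8 cells (limma) the KO effect differed between D15 and D7 for *Mest* (1.49), *Magel2* (1.38), *Phlda2* (1.36), *Cdkn1c* (1.25), *H19* (1.20), *Slc38a4* (1.11) and *Plagl1* (1.01), all towards higher levels in KO at D15. *Magel2* reached the filter there through KO libraries alone. Of the genes in both sets, *Mest* and *Plagl1*, the sign was opposite in the 2 lines.

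The KO effect at D15 went in opposite directions in Tsix-stop and E8 cells for *Igf2* (-4.75 and 6.77), *H19* (-1.69 and 3.39), *Peg3* (-1.65 and 2.86), *Airn* (-2.08 and 2.84), *Plagl1* (-3.48 and 2.14), *Gnas* (-1.85 and 1.02) and *Sgce* (-1.02 and 1.57). The first value of each pair is for Tsix-stop cells. Of all genes called in both lines 95.6% likewise moved in opposite directions, and *Airn* reached the filter in E8 cells through KO libraries alone. The difference between the lines was not tested. Groups of 2 libraries are too small for a search for outlying samples.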

How the results depend on the processing

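Of the counts of called members recomputed under each alternative, 267 stayed within 1.5 times the count given in the report and 26 did not. Of the values of single genes 1386 kept direction and call, 89 kept direction and lost the call and 6 turned direction. All 6 came from the CRISPR control in place of wt: *Igf2* (0.23) and *Usp29* (0.090) at D0, *Plagl1* at D15 (0.80), over differentiation (-3.52) and in the interaction (0.25), and the D15 share of *Ppp1r9a* (-6.90 points). In that setting Tsix-stop calls numbered 0 at D0, 3 at D15, 2 in the interaction and 1 for D15 shares. With the CRISPR control added to wt they were 0 at D0 and 5 in the interaction. Leaving out 1 library gave 3 to 6 calls at D0, 0 to 1 for D0 shares, 1 to 4 for D15 shares, 1 to 2 for shares over wt differentiation, 0 to 3 for shares over KO differentiation and, in E8 cells, 3 to 6 for D15 shares. Of these the 3 at D0 came without KO D0 replicate 2, and the 3 E8 shares without KO D15 replicate 1. With no minimum change of share the counts were 8 (Tsix-stop D15), 3 (wt differentiation), 2 (KO differentiation), 11 (E8 D15) and 1 (E8 KO over time), and at least 50 SNP reads gave 2 for wt differentiation. A pseudocount of 0.1 gave 1 call in E8 wt over time, and one of 5 gave 4 in the E8 interaction. In E8 wt at D15 1 member was monoallelic at 95% or 5% and 5 at 80% or 20%, and in E8 KO at D7 3 were at 95% or 5%. The cause of these shifts was not tested beyond what the settings themselves change.

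The sources do not say that a replicate number marks a shared sample or clone. Deviations of same-numbered libraries correlated between -0.162 and 0.198, the highest between KO D0 and KO D15, and *Kdm6a* was higher in KO replicate 1 than 2 on both days, so whether the numbers mark the KO clones was not settled. Blocking on that number gave Tsix-stop calls of 5 at D0, 11 at D15, 17 over wt and 13 over KO differentiation and 10 in the interaction, and those in E8 cells and of shares had the same counts as without it. DESeq2 gave 6, 10, 17, 13 and 9 in the same order. Shares of genes with few SNP reads, such as *Igf2* in KO ES cells (4 reads in each library), were not measurable at this depth, and the depth of E8 libraries is unknown.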
